A study of Mus musculus with 8 samples.

Results

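Retinoid synthesis and retinoic acid response were followed through 9 genes that make, bind, sense or break down retinoic acid: Rdh10, Dhrs3, Aldh1a1, Aldh1a2, Aldh1a3, Cyp26b1, Crabp1, Crabp2 and Rarb. They were chosen by gene symbol from the 27179 genes of an RNA sequencing table. All 9 were found, and 8 of them were among the 13262 genes that reached 1 CPM (a read count scaled to library size) in 4 tumors or more of the 8, the filter for testing. Rarb did not pass it.

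Retinoic acid is made from vitamin A in successive oxidations. Retinol dehydrogenases such as RDH10 convert retinol to retinal, DHRS3 works in the reverse direction, and the retinal dehydrogenases of the ALDH1A family convert retinal to retinoic acid. CRABP proteins bind retinoic acid in the cytoplasm, CYP26 enzymes hydroxylate it for removal, and nuclear receptors of the RAR and RXR families carry its signal to target genes, among which Rarb, Cyp26a1, Dhrs3 and Crabp2 are well known.

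The tumors came from C26, a mouse colon carcinoma line that causes cachexia, the wasting of muscle and fat. The cachectic line cxC26 was grown under the skin of the right flank of CD2F1 male mice aged 13 to 18 weeks, and whole tumors were taken once cachexia had developed, by the study's criterion a body weight loss above 15%. The control group, cxC26 scr, carried a scrambled CRISPR guide (4 tumors), and the other group, cxC26 IL-6 KO s1 (cxC26 IL6KOs1 in the labels), carried a disrupted Il6 gene (4 tumors). Both lines carried a Cas9 vector, and the knockout line was a single subclone picked from a puromycin-selected pool, so loss of IL-6 and other properties of that subclone cannot be told apart. Where the study grew this subclone in CD2F1 mice, more knockout than control cells were implanted and knockout tumors reached their end point later, so time in the host cannot be told apart from genotype either. The comparison asked which genes differ in tumors that lack tumor-made IL-6. In these bulk samples, fewer cells of a type and less RNA per cell cannot be told apart.

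Values were log2 CPM, the base-2 logarithm of that scaled count. Each tumor had between 14158989 and 17048062 reads on genes, so that 1 CPM is a low level and genes below it carry large counting error. The fold change is the mean log2 CPM of the 4 KO s1 tumors minus that of the 4 scr tumors, given with its standard error (SE). A gene was called higher or lower where limma's p-value, adjusted over all 13262 genes by the Benjamini-Hochberg method, was under 0.05. Il6 itself had 356, 326, 376 and 438 reads in scr tumors 1 to 4 and 64, 56, 86 and 59 reads in KO s1 tumors 1 to 4, giving -2.45 as the log2 fold change (SE 0.165). Host cells in the tumor keep an intact Il6 gene, and whether the remaining reads came from host or tumor cells was not tested. Of the 5 epithelial markers checked for the labelled carcinoma, Krt18 and Cdh1 passed the filter, while Krt8, Krt19 and Epcam did not.

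A retinoic acid receptor dimer binds a direct repeat of 2 short units. The unit searched was AGGTCA, in which the first letter could also be G and the third also T, and 2 units had to stand in the same orientation with 5 bases between them (DR5), on either strand. The windows were the RefSeq promoters of GRCm38.p6, 250 bases before to 50 bases after each start site. The sequences are shown because they are the receptor's own feedback element: of the 6 members with a promoter entry, only Rarb held a match, and Cyp26a1, the other well known feedback target, held the second sequence. Capitals mark the 2 units.
Rarb, chr14:16575513-16575529, minus strand, 53 to 37 bases before the start site: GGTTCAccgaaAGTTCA
Cyp26a1, chr19:37697776-37697792, 32 to 16 bases before the start site of a plus-strand gene and read from the opposite strand: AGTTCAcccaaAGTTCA

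Both sequences share their second unit. In GENCODE M21 the Rarb match lay inside the gene, and transcripts that start further upstream carry it in exonic 5′ UTR. DR5 matches were rare, with 32 of 32851 windows (0.0974%) holding one. The other spacings that retinoid receptors bind, 1 base (0.222% of windows) and 2 bases (0.268%), had no match in the 9 windows of members, which belong to Aldh1a1, Aldh1a2, Crabp1, Cyp26b1, Dhrs3 and Rarb. Aldh1a3, Crabp2 and Rdh10 have no entry. A match describes letters and not a bound site. Among the 31 genes with a DR5 match, 4 passed the expression filter, and of these Blvrb (0.52) and Tnfsf13b (1.74) were higher by log2 fold change, Cfap45 (-1.88) was lower and Ppbp (-0.33) was not called.

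Of the 8 members tested, 3 were higher in KO s1 tumors (Rdh10, Aldh1a2 and Crabp2), 3 were lower (Dhrs3, Cyp26b1 and Crabp1) and 2 were not called (Aldh1a1 and Aldh1a3). Across all tested genes 39.8% were called, 19.1% higher and 20.7% lower, so a call alone is common in this comparison. The median log2 fold change of the 8 was -0.03, against -0.00289 over all tested genes. The sizes differed more: Rdh10, Aldh1a2 and Crabp2 each changed by more than 2 on the log2 scale, which 2.34% of tested genes did along with being called. For 6 of the 8 the scr and KO s1 tumors did not overlap, against 37.1% of tested genes. The members were chosen with earlier results of these data known. These shares therefore cannot show whether the members changed more than other genes.

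**Figure D1:**
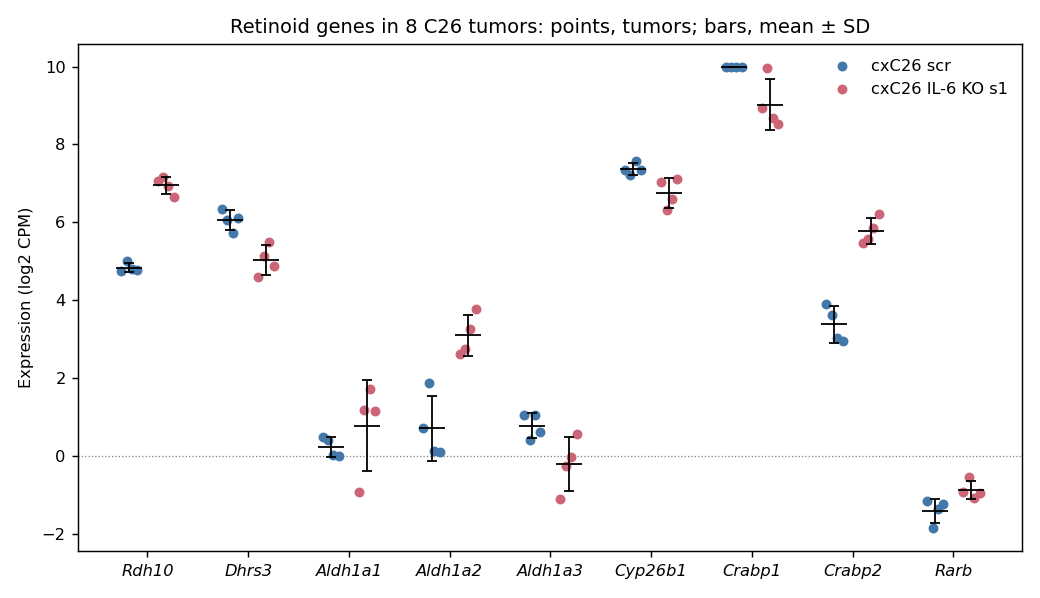
Expression (log2 CPM, vertical axis) of the 9 members with 1 point for each tumor of the scr and KO s1 groups, with bars for the mean and SD of the 4 tumors of a group. Rdh10, Aldh1a2 and Crabp2 sit higher in every KO s1 tumor, Dhrs3, Cyp26b1 and Crabp1 sit lower, and the 4 scr points of Crabp1 lie on top of each other.

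Rdh10 (Entrez 98711, chr1:16105882-16132550, GRCm38) encodes the main retinol dehydrogenase of retinoic acid synthesis. Its log2 CPM was 4.75, 5.01, 4.80 and 4.78 in the scr tumors and 7.07, 7.16, 6.92 and 6.66 in the KO s1 tumors. All KO s1 tumors lay well above all scr tumors, and neither group was wide. The mean rose from 4.84 ± 0.117 to 6.95 ± 0.216 (SD, n = 4 each), a log2 fold change of 2.12 (SE 0.113, limma adjusted p = 4.7e-07), or 4.34-fold. It was the most precise of the members' changes relative to its size.

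Dhrs3 (Entrez 20148, chr4:144892534-144928209) encodes the retinaldehyde reductase that returns retinal to retinol and acts together with RDH10. It went the other way, from 6.33, 6.06, 5.73 and 6.12 in the scr tumors to 4.61, 5.14, 5.50 and 4.88 in the KO s1 tumors. The groups came close at scr tumor 3 and KO s1 tumor 3 without overlapping. The log2 fold change was -1.03 (SE 0.179, limma adjusted p = 0.00098), leaving 49.0% of the scr level. Within each tumor, Rdh10 minus Dhrs3 was therefore negative in the scr tumors, from -1.58 to -0.92, and positive in the KO s1 tumors, from 1.43 to 2.46, on the log2 CPM scale. Per kilobase of the longest transcript, Dhrs3 exceeded Rdh10 in the scr group (4.83 against 2.99 log2 CPM per kb), and Rdh10 exceeded Dhrs3 in the KO s1 group (5.11 against 3.80).

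The 3 retinal dehydrogenases were all expressed at low levels. Aldh1a2 (Entrez 19378, chr9:71215789-71296243), the dehydrogenase of mesenchymal and many immune cells, had 27, 59, 15 and 16 reads in the scr tumors and 99, 93, 151 and 197 reads in the KO s1 tumors. In log2 CPM this was 0.72, 1.88, 0.12 and 0.10 against 2.61, 2.76, 3.26 and 3.77. Scr tumor 2 stood above the other scr tumors but below every KO s1 tumor, and KO s1 tumor 4 was the highest. The mean went from 0.71 ± 0.833 to 3.10 ± 0.526 (SD, n = 4 each), a log2 fold change of 2.40 (SE 0.391, limma adjusted p = 0.000671), or 5.26-fold. Scr tumor 2 also had the highest scr sum of the 4 skeletal muscle markers (145 CPM, against 6.04 to 33.2 in the other scr tumors), and in KO s1 tumors 1 to 4 these markers summed to 19.4, 60.7, 82.8 and 294 CPM, the same order as Aldh1a2. None of the 4 was called between the groups, and the sums overlapped. The macrophage marker sum was highest in scr tumor 2 within its group (547 CPM) but in the KO s1 group was highest in tumor 1 (1120 CPM), which had the lowest Aldh1a2 there. Fibroblast marker sums (5477, 6413, 7397 and 8605 CPM) and mast cell marker sums (18, 98.5, 99.3 and 109 CPM) also rose from KO s1 tumor 1 to 4. Within the scr group both were highest in tumor 1. The part of any of these cell types in the Aldh1a2 values was not tested.

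Aldh1a1 (Entrez 11668, chr19:20492583-20643463), a retinal dehydrogenase that is also used as a marker of stem-like tumor cells, had 23, 21, 14 and 15 reads in the scr tumors and 8, 31, 51 and 32 in the KO s1 tumors. KO s1 tumor 1 was the lowest of all tumors, and the other 3 KO s1 tumors were the highest. The log2 fold change was 0.55 (SE 0.492, 95% interval -0.53 to 1.62, limma adjusted p = 0.403), so no difference was detectable. It was 1.12 without KO s1 tumor 1 (limma adjusted p = 0.0104), 0.24 without KO s1 tumor 3 (limma adjusted p = 0.751), and 0.30 after the median of neighbouring genes was subtracted (limma adjusted p = 0.682). KO s1 tumor 1 also stood apart in other genes: its mast cell markers summed to 18 CPM against 98.5 to 109 in the other KO s1 tumors, and its dendritic cell markers to 62.1 CPM against 15.5 to 24.5. The dendritic sum of KO s1 tumor 1 was mostly a single gene, Itgax (5.76 log2 CPM). The part of these cell types in the Aldh1a1 value was not tested. Aldh1a1 shares 6.54% of its 50-base transcript windows with Aldh1a7, which had 9 reads in the scr tumors together and 28 in the KO s1 tumors, so a few reads of the pair may be assigned to either.

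Aldh1a3 (Entrez 56847, chr7:66390892-66427477), the retinal dehydrogenase best known from epithelia, had 34, 21, 29 and 23 reads in the scr tumors and 7, 11, 15 and 21 in the KO s1 tumors. KO s1 tumor 4 reached the lowest scr count, and the other KO s1 tumors lay below it. The log2 fold change was -0.99 (SE 0.376, 95% interval -1.81 to -0.17), and the limma adjusted p of 0.0548 missed the threshold. It passed without KO s1 tumor 4 (log2 fold change -1.25, limma adjusted p = 0.0237) and in 4 other alternative analyses. In 11 of the 16 alternatives that tested it, Aldh1a3 was not called (limma adjusted p up to 0.179), so it sat at the edge of a call.

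Taken per kilobase, the mix of the 3 dehydrogenases differed between the groups. Aldh1a2 made up 37.8%, 63.5%, 31.6% and 35.1% of their summed CPM per kb in the scr tumors and 89.0%, 71.5%, 72.0% and 81.6% in the KO s1 tumors. Aldh1a3 made up 14.9% to 40.1% in the scr tumors and 4.14% to 5.72% in the KO s1 tumors. The share of Aldh1a1 ranged from 21.7% to 31.6% in the scr tumors and overlapped with the 6.9% to 23.3% of the KO s1 tumors. Their sum was 1.31 to 2.54 CPM per kb in the scr tumors and 3.03 to 7.36 in the KO s1 tumors. These shares rest on 54 to 250 reads a tumor and follow from the single-gene values, so they were not tested separately.

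**Figure D2:**
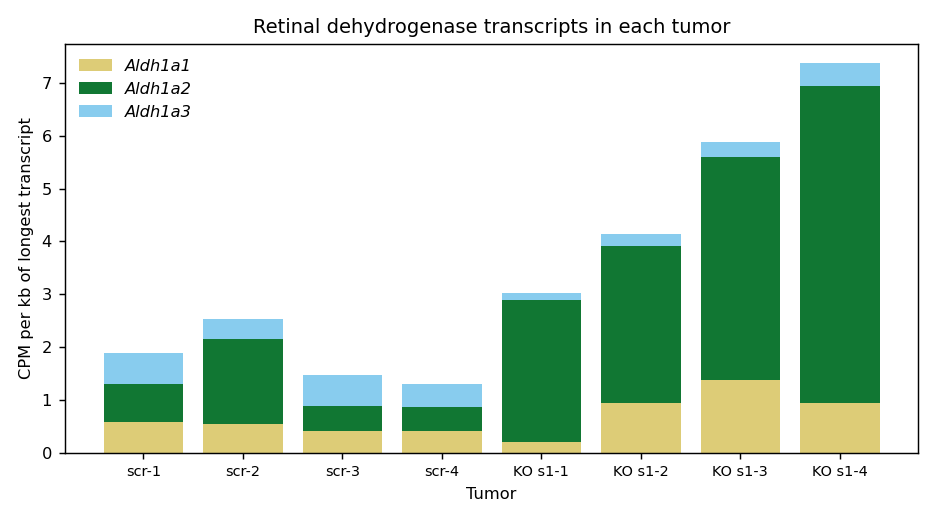
Stacked bars of Aldh1a1, Aldh1a2 and Aldh1a3 in each tumor, in CPM per kb of the longest transcript. The Aldh1a2 segment is 31.6% to 63.5% of the bar in the scr tumors and 71.5% to 89.0% in the KO s1 tumors, and every KO s1 bar (3.03 or more) is taller than every scr bar (2.54 or less).

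Cyp26b1 (Entrez 232174, chr6:84571414-84593908) encodes a retinoic acid hydroxylase and was the only CYP26 gene expressed above the filter. Its log2 CPM was 7.35, 7.22, 7.57 and 7.34 in the scr tumors and 7.03, 6.31, 6.59 and 7.13 in the KO s1 tumors. KO s1 tumors 1 and 4 lay just under the lowest scr tumor, and KO s1 tumors 2 and 3 further below. The log2 fold change was -0.61 (SE 0.161, limma adjusted p = 0.0114), or 65.7% of the scr level, the smallest of the 6 called changes. The other hydroxylases were near 0: Cyp26a1 had 1 read in all scr tumors together and 0, 8, 4 and 0 reads in the KO s1 tumors, and Cyp26c1 had at most 6 reads in any tumor. Aldh1a2 minus Cyp26b1, the difference between a synthesis and a removal gene within a tumor, ran from -7.45 to -5.34 in the scr tumors and from -4.41 to -3.33 in the KO s1 tumors, in log2 CPM. Cyp26b1 thus stayed the more abundant transcript in every tumor, also per kb as a group mean (4.59 against 1.92 log2 CPM per kb in the KO s1 group).

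The 2 cellular retinoic acid binding proteins moved in opposite directions. Crabp2 (Entrez 12904, chr3:87948693-87953372), which delivers retinoic acid to nuclear receptors, had a log2 CPM of 3.91, 3.62, 3.03 and 2.95 in the scr tumors and 5.46, 5.57, 5.86 and 6.23 in the KO s1 tumors. Every KO s1 tumor was above every scr tumor by a wide gap. The mean went from 3.38 ± 0.466 to 5.78 ± 0.341 (SD, n = 4 each), a log2 fold change of 2.40 (SE 0.225, limma adjusted p = 1.8e-05), or 5.29-fold.

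Crabp1 (Entrez 12903, chr9:54764748-54773110), which binds retinoic acid in the cytoplasm and is linked to its breakdown, was the most abundant member. Its log2 CPM was 9.98, 9.99, 9.98 and 9.98 in the scr tumors and 8.93, 9.96, 8.68 and 8.53 in the KO s1 tumors. KO s1 tumor 2 was within reach of the scr tumors, at 13838 reads, while the other KO s1 tumors had 5347 to 7934 reads. The log2 fold change was -0.96 (SE 0.245, limma adjusted p = 0.00928), or 51.5% of the scr level, and -1.27 without KO s1 tumor 2 (limma adjusted p = 1.5e-05). The spread was unequal: the SD over the scr tumors was 0.00354 on the log2 scale, below the 0.0115 that counting error alone gives on average, and only 1 of the 13262 tested genes had a smaller one. Over the KO s1 tumors the SD was 0.648, and 5.37% of tested genes had a larger one. Crabp1 minus Crabp2 within a tumor was 6.07 to 7.04 in the scr tumors and 2.30 to 4.39 in the KO s1 tumors, in log2 CPM, and per kb Crabp1 exceeded Crabp2 in both groups (10.3 against 3.48 in scr, 9.34 against 5.88 in KO s1).

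Rarb (Entrez 218772, chr14:16430839-17082331), the receptor gene whose promoter element is printed above, had 7, 4, 5 and 6 reads in the scr tumors and 8, 9, 7 and 7 in the KO s1 tumors. In log2 CPM the scr tumors lay between -1.85 and -1.15 and the KO s1 tumors between -1.07 and -0.54, without overlap. The difference of 0.53 gave a two-sided exact permutation p of 0.0286, the smallest that 4 tumors against 4 can give. By reads, 31 of 53 came from KO s1 tumors, or 58.5% with an exact 95% interval of 44.1% to 71.9%, and KO s1 tumors held 49.1% of all reads. The interval, which covers counting error only, includes that share. The tumors of the groups were thus separated by rank in log2 CPM only, at 4 to 9 reads a tumor. By reads, scr tumor 1 and KO s1 tumors 3 and 4 were tied at 7. The interval of the pooled reads did not separate the groups. Lack of overlap was also common, at 37.1% of tested genes. The reads are also not certain to be from Rarb, since 54.1% of the 50-base windows of its longest transcript are shared with the neighbouring Top2b (chr14:16365206-16430787), which runs towards it on the opposite strand and whose log2 CPM was 7.53 in scr and 7.49 in KO s1 tumors. In GENCODE M21, 38.4% of the exon bases of Rarb are shared with genes on the opposite strand, while the spans printed here do not overlap. Without a stated annotation and strand setting, it is not known how many of the reads came from Top2b.

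Per kb of the longest transcript, the order of the members' mean levels in the scr group was Crabp1 (10.3 log2 CPM per kb), Cyp26b1 (5.20), Dhrs3 (4.83), Crabp2 (3.48), Rdh10 (2.99), Aldh1a2 (-0.47), Aldh1a1 (-1.0), Aldh1a3 (-1.0) and Rarb (-3.04). In the KO s1 group it was Crabp1 (9.34), Crabp2 (5.88), Rdh10 (5.11), Cyp26b1 (4.59), Dhrs3 (3.80), Aldh1a2 (1.92), Aldh1a1 (-0.46), Aldh1a3 (-1.99) and Rarb (-2.51). Crabp2 and Rdh10 passed Cyp26b1 and Dhrs3 in this order, and the 4 genes at the low end kept theirs. Aldh1a1 and Aldh1a3 did not differ beyond their spread in the scr group.

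Genes with the profile most like a called member were sought among all other tested genes, by the root mean square difference of log2 values over the 8 tumors, each gene centred on its own mean. Adh7, an alcohol dehydrogenase that also oxidises retinol, was the nearest to Rdh10 (0.16), followed by Scrn1 (0.164). S100a16, a calcium-binding protein gene, was the nearest to both Crabp2 (0.14) and Aldh1a2 (0.413), followed by Ackr2 (0.248) for Crabp2 and Gm20056 (0.423) for Aldh1a2. S100a16 had 157, 147, 82 and 89 reads in the scr tumors and 485, 474, 611 and 596 in the KO s1 tumors. For the members that fell, the nearest were Cand2 (0.236) and Evl (0.237) to Crabp1, Abcc10 (0.0848) and Htt (0.0916) to Cyp26b1, and Rcn3 (0.148) and Adora2b (0.167) to Dhrs3. These are descriptions of likeness over 8 tumors and carry no test.

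Around the members, 53 other genes of retinoid handling were listed by role, of which 30 passed the filter, 6 were higher, 7 lower and 17 not called (43.3% called, against 39.8% of all tested genes). Among 10 genes of retinol uptake, transport and storage, 4 were tested and 1 was called: Stra6, the membrane receptor that takes up retinol from its plasma carrier. Stra6 had 507, 413, 420 and 542 reads in the scr tumors and 43, 13, 74 and 73 in the KO s1 tumors. Its log2 fold change was -3.42 (SE 0.418, limma adjusted p = 0.000109). Every KO s1 tumor was far below every scr tumor, and this was the largest change in the 5 lists. The gene's span overlaps that of Ccdc33, so some reads may belong to either, but shared exons were examined for the members only. Stra6l, Rbp7 and Dgat1 were not called, with log2 fold changes between -0.13 and 0.14.

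Among 19 other retinol and retinal oxidoreductases, 9 were tested, 4 were higher and 1 lower. Adh7 led them, with 328, 329, 312 and 275 reads in the scr tumors and 1187, 1246, 1100 and 929 in the KO s1 tumors. Its log2 fold change was 1.89 (SE 0.116, limma adjusted p = 1.1e-06). Rdh5, a retinol dehydrogenase known from the visual cycle, rose by 0.99 (SE 0.172, limma adjusted p = 0.000969), and Adh5, a widely expressed alcohol dehydrogenase, by 0.44 (limma adjusted p = 0.00645), both on the log2 scale. Retsat, a retinol saturase, rose by 0.25 (limma adjusted p = 0.0339), a call that ended when any of scr tumors 2 to 4 or KO s1 tumors 2 to 4 was left out (log2 fold change 0.21 to 0.26, adjusted p up to 0.107). Rdh13, a mitochondrial retinol dehydrogenase, fell by 0.71 on the log2 scale (limma adjusted p = 0.000227). With the median change of neighbouring genes on the chromosome subtracted, the log2 fold change was -0.37 for Rdh13 (limma adjusted p = 0.0137), 0.27 for Adh5 (0.0698) and 0.13 for Retsat (0.262).

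Of the 11 receptors, partners and cofactors, 10 were tested, none was higher and 5 were lower, by at most 0.46 on the log2 scale. The coactivator Ncoa2 (-0.46), the receptors Rara (-0.34) and Ppard (-0.33) and the corepressor Ncor1 (-0.25) were the largest by log2 fold change, with limma adjusted p of 0.00513, 0.0322, 0.0264 and 0.0236, and Rxrb was smaller. With the median change of neighbouring genes subtracted, the calls of Ncoa2 (-0.17, limma adjusted p = 0.247), Rara (-0.16, 0.306), Ppard (-0.22, 0.139) and Ncor1 (-0.10, 0.386) ended. Single tumors also decided most of these calls. Leaving out any of scr tumors 1 to 3 or KO s1 tumors 2 to 4 ended the call of Rara (-0.34 to -0.28, adjusted p up to 0.0956), and KO s1 tumor 3 or 4 that of Ppard (-0.32, adjusted p up to 0.0647). Scr tumor 4 or KO s1 tumor 1, 3 or 4 did so for Ncor1 (-0.24 to -0.23, adjusted p up to 0.0728), and scr tumor 1, 3 or 4 or KO s1 tumor 1, 2 or 4 for Rxrb (-0.22 to -0.20, adjusted p up to 0.114). Rarg and Rxra, the other abundant receptors, were not called (0.17 and 0.09).

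Among the 11 genes listed as other targets of retinoic acid, 7 were tested, 2 were higher and none was lower. Each gene was listed under a single role, so this count leaves out Stra6 (log2 fold change -3.42) and Cyp26b1 (-0.61), which were lower. The targets named at the start and tested as members went both ways, with Crabp2 higher and Dhrs3 lower. Tgm2, a transglutaminase induced by retinoic acid in many cells, had 681, 532, 378 and 394 reads in the scr tumors and 2289, 629, 1022 and 876 in the KO s1 tumors. KO s1 tumor 1 was the highest and KO s1 tumor 2 lay close to the scr tumors, and the log2 fold change was 1.19 (SE 0.284, limma adjusted p = 0.00621). Meis2, a homeobox gene, rose by 0.35 on the log2 scale (limma adjusted p = 0.0229), a call that ended without scr tumor 2 or 3 or KO s1 tumor 3 (0.31 to 0.34, adjusted p up to 0.072).

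**Figure D3:**
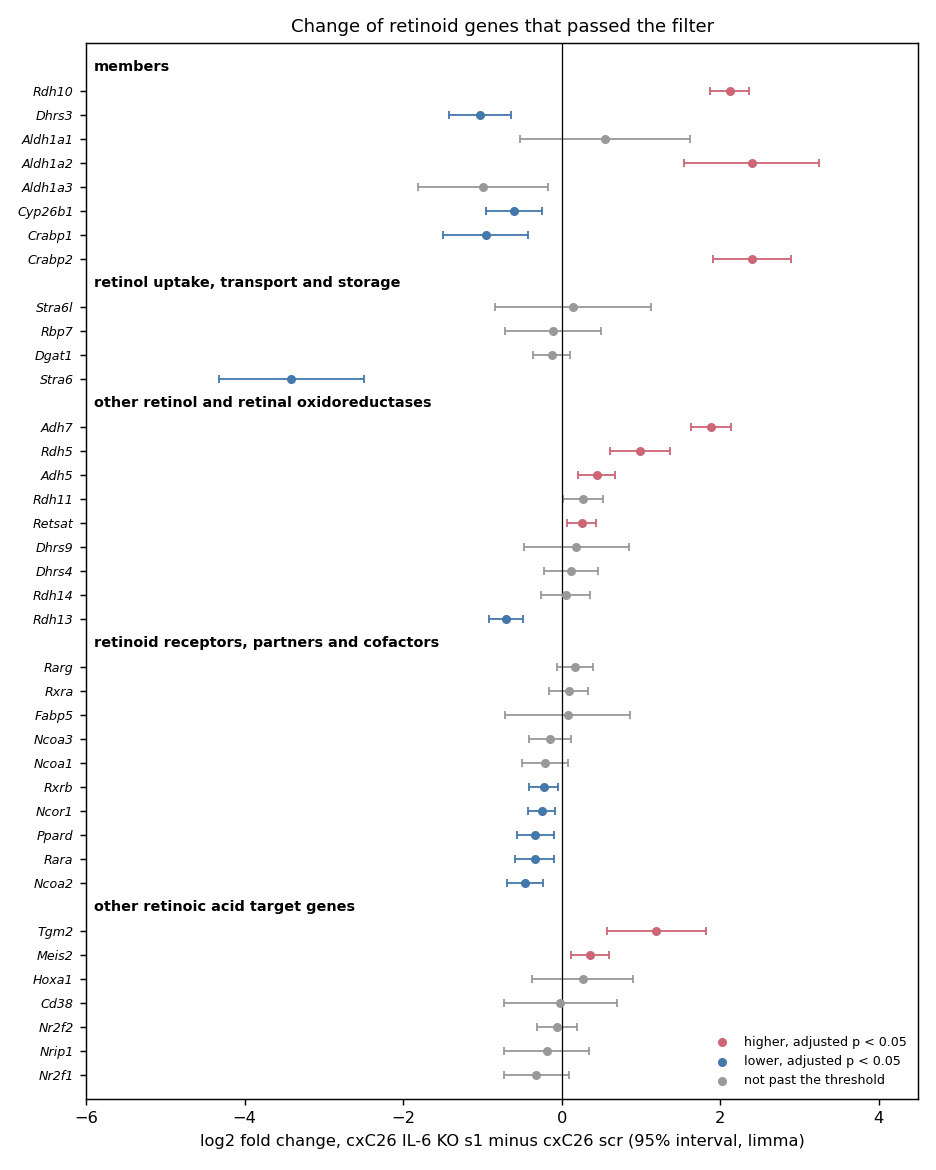
Log2 fold change (cxC26 IL-6 KO s1 minus cxC26 scr, horizontal axis) with its 95% interval from limma for each tested member and each tested gene of the 4 pathway lists that had any, coloured by call. Rdh10, Aldh1a2 and Crabp2 lie near 2 or above, Stra6 lies at -3.42, and the receptors and cofactors lie within 0.46 of 0.

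Markers of the cell types a flank tumor can hold were summed in CPM beside these results. All 5 macrophage markers were higher in KO s1 tumors (379 to 547 CPM in scr, 771 to 1120 in KO s1), as were the 4 tested of 5 mast cell markers (7.27 to 10.5 and 18 to 109) and the 3 tested of 5 T cell markers (0.629 to 1.88 and 6.03 to 10.2). Of the macrophage markers, Mrc1 passed only narrowly (limma adjusted p = 0.0499), and its groups overlapped. The 5 dendritic cell markers did not move together: the 2 tested, Itgax and Zbtb46, were lower, while 3 below the filter had more reads in KO s1 than in scr tumors, at 13 and 42 for Xcr1, 33 and 110 for Ccr7 and 29 and 64 for Flt3. The summed dendritic list (77.6 to 106 and 15.5 to 62.1) was mostly Itgax. Of the 5 epithelial markers, Krt18 and Cdh1 were higher (summed list 2.96 to 4.85 and 14.3 to 26.6), and Krt19 was at or near 0 throughout, with at most 1 read in a tumor. Of 6 fibroblast markers Lum was higher and Col3a1 and Pdgfra were lower (7660 to 10200 and 5480 to 8610), and of 4 pericyte markers Pdgfrb was lower. None of the 5 endothelial, 3 adipocyte or 4 skeletal muscle markers tested, nor the single one tested for mesothelium (Msln) and keratinocytes, was called. The part of these cell types in the levels of Rdh10, Aldh1a2, Crabp2, Dhrs3, Cyp26b1 and Crabp1 was not tested.

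The 6 calls among the members were all kept in 16 of the 17 alternative fits, and the remaining one, a stricter filter, did not test Aldh1a2. Those of Crabp1 and Cyp26b1 were kept only narrowly without a filter (limma adjusted p = 0.0487 and 0.0484). Requiring a change of at least 2-fold besides the adjusted p kept the 3 higher calls and that of Dhrs3, and ended those of Cyp26b1 and Crabp1. Over these fits the log2 fold change ranged from 2.05 to 2.40 for Rdh10, from 2.25 to 2.58 for Crabp2, from 1.84 to 2.79 for Aldh1a2, from -1.18 to -0.89 for Dhrs3, from -0.73 to -0.45 for Cyp26b1 and from -1.27 to -0.79 for Crabp1.

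**Figure D4:**
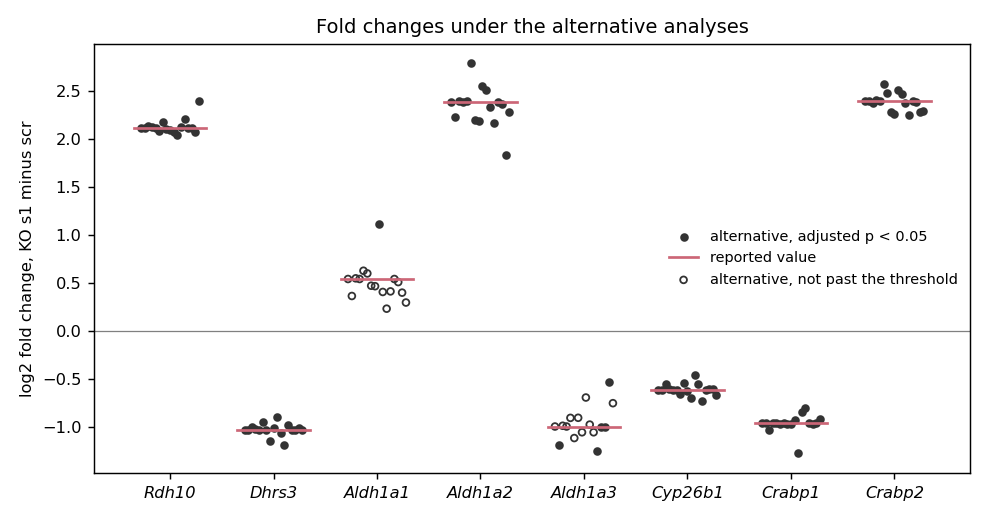
Log2 fold change (cxC26 IL-6 KO s1 minus cxC26 scr, vertical axis) of each tested member under each alternative analysis, with filled points past an adjusted p of 0.05, open points not past it and a line at the reported value. No member changed sign, and the points of Aldh1a1 and Aldh1a3 are partly filled and partly open.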

How the data were processed

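RNA of 8 whole tumors, 4 per group by sample title, was sequenced as 150 bp paired reads. After trimming (Trimmomatic), alignment to mm10 (Hisat2) and gene counting (featureCounts), the authors deposited log2 CPM per gene as limma-voom gives it. The submitters' processing notes name bcl2fastq 2.17, and other versions, the annotation and the strand setting are not given in the sources used here. Whole reads were recovered by inverting the log2 values, with 100% of values whole within 0.01.

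limma 3.58.1 in R 4.3.3 (lmFit, eBayes with trend, no covariates) was fitted to all genes that reached 1 CPM in 4 tumors or more and was tested on simulated data. For single values a two-sided exact permutation test over tumors was run in scipy 1.17.1. Replicates are tumors of separate mice, so p-values measure the spread between tumors. Members, pathway and marker lists were chosen with earlier results of these data known, and some genes of the pathway lists are not reported here. Named genes were the members, Il6, the largest calls of each pathway list (at most 4 a direction), lists' remaining genes by name where few, and for each called member the 2 genes of nearest profile. The genes holding a DR5 match, Top2b and Aldh1a7 were named after their values were seen. Transcript lengths, exons and shared 50-base windows came from GENCODE M21 and promoters from RefSeq (GRCm38.p6). Alternatives changed the filter, normalization, pseudocount, variance model, weights, pairing, regional shift, fold threshold and the tumors included.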

Additional observations from a re-analysis of the deposited data

Results flagged for a closer look

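Each group of 4 tumors was searched for a value that stood apart from the others by Dixon's criterion, for the 9 members and the 13 called pathway genes (44 groups), and 3 did, where chance gives about 2.2. Rdh13 was 4.32 log2 CPM in KO s1 tumor 2 against 4.51 to 4.55 in the other KO s1 tumors. Rara was 4.61 log2 CPM in KO s1 tumor 1 against 4.43 to 4.45 in the other KO s1 tumors. Ncor1 was 7.28 log2 CPM in KO s1 tumor 2 against 7.10 to 7.12 in the other KO s1 tumors.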

How the results depend on the processing

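Requiring a change of at least 2-fold left 829 genes higher and 521 lower, and of the members 3 higher and 1 lower (Dhrs3). In the 17 fits without that requirement, the count of members called higher was 3 except under the filter at a mean of 3 log2 CPM, which gave 2, and leaving out KO s1 tumor 1, which gave 4 with Aldh1a1. The count called lower was 3, or 4 with Aldh1a3 under quantile normalization, no mean-variance trend, voom weights, log2(CPM + 1) and without KO s1 tumor 4. Leaving out 1 tumor at a time gave 2023 to 2540 genes higher and 2193 to 2674 lower. Tumors with the same replicate number did not deviate together (correlations of -0.059, 0.057, 0.017 and -0.059), so the numbers do not pair them, and a replicate block gave 3 members higher and 3 lower, and 2477 genes higher and 2688 lower. Of the 13 pathway genes called, 5 kept their call in every one of these fits that tested them (Stra6, Rdh5, Rdh13, Adh7 and Tgm2), 8 lost it in at least 1, and none reversed, while Rdh5 and Rdh13 changed by less than 2-fold. Removing the regional median ended the calls of Adh5, Retsat, Rara, Ppard, Ncor1, Ncoa2 and Meis2, with the cause not tested. Depth limits Aldh1a1, Aldh1a3 and Rarb, at 51 reads or fewer a tumor, where counting error is large. It also limits the scr level of Aldh1a2, at 15 to 59 reads a tumor.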
